A study of Mus musculus with 10 samples.

Results

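The control libraries of glioma endothelium are the 5 of 10 libraries whose titles name a control: 2 controls of the Sox7 arm and 3 controls of the Sox17 arm. They hold RNA of endothelial cells purified from orthotopic gliomas, which were raised per the design text by intracranial injection of GL26l glioma cells into mice of congenic B6 background. The labels give C57BL/6 as the strain background of every sample and name the groups by genotype only, as Sox7 control and Sox17 control. In the other 5 libraries Sox7 or Sox17 had been deleted with floxed alleles (Sox7fl/fl, Sox17fl/fl) and the Cdh5(BAC)-CreERT2 driver, a tamoxifen-activated recombinase expressed in endothelium, after 20 mg/kg tamoxifen given into the peritoneum of what the text calls experimental mice. Whether the controls carried floxed alleles or the driver, and whether they received tamoxifen, is not stated, nor are the age and sex of the mice or the number of animals behind a library. The design text speaks of independent sets, so p-values measure the spread between these libraries, which may be partly technical. A numeric code in the sample descriptions is different for each of 4 control libraries and is missing for Sox17 control 1, so that code and arm cannot be told apart.

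Endothelial cells line blood vessels. In brain they join through tight junctions, carry nutrients inward by dedicated transporters and pump many drugs back into the blood, a set of properties called the blood-brain barrier. In glioma the vessels are remodelled under vascular endothelial growth factor (VEGF), and a part of this barrier programme is altered. The SoxF factors Sox7, Sox17 and Sox18 are transcription factors of endothelium that act with VEGF and Notch signalling in vessel growth and arterial identity. A baseline from control tumours is what the deletion of either factor is compared with, and each arm was given its own controls.

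Libraries were made from 500 ng of total RNA with a 3′ tag kit that reads 1 short stretch near the polyadenylated end of a transcript, so a count does not grow with transcript length. Ranks between genes are ranks of these counts, and differences between genes in capture or mapping were not corrected. The unit here is CPM, a gene's counts per 1000000 of the library's counts on gene symbols listed in every file, with Rn45s, the ribosomal RNA precursor, left out. Such counts numbered 7402748 and 9250216 in Sox7 controls 1 and 2 and 1806662, 11052299 and 13986604 in Sox17 controls 1, 2 and 3. Rn45s had taken between 4.36 and 22.2% of the counts before it was removed. Of 23237 symbols, 9734 to 15743 had a count, and 9734 to 13736 would be expected at the depth of Sox17 control 1, the shallowest library. A floor of 3 counts was worth 1.66 CPM in that library and 0.214 CPM in the deepest, and intervals and floors cover counting error only, since no molecular identifiers are named. Values for single libraries are given in the order Sox7 control 1 and 2, then Sox17 control 1, 2 and 3, also where 2 values are set against 3.

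The defining endothelial markers were present in every control library. Pecam1, the platelet endothelial adhesion molecule, stood at 649 and 1158 CPM in the Sox7 controls and 629, 2409.5 and 564 CPM in the Sox17 controls. Cdh5, the cadherin of endothelial adherens junctions, was at 499.8 and 364 against 474, 438 and 723 CPM. Cldn5, the main claudin of brain endothelial tight junctions, measured 1269.7 and 1496 against 973, 1066 and 1902 CPM. Cldn5 and Cdh5 stayed within a range of 1.95 and 1.98 times from lowest to highest, while Pecam1 was set apart by Sox17 control 2. The 22 pan-endothelial genes together took 3.02 and 2.83% of counts in the Sox7 controls and 3.00, 3.17 and 2.81% in the Sox17 controls.

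Transcription in these cells was spread over many genes in a closely similar way in all 5 libraries. The 100 most abundant genes of a library took 23.5 and 21.7% of counts in the Sox7 controls and 23.8, 23.2 and 22.7% in the Sox17 controls, a mean of 22.99 ± 0.826% (SD, n = 5). The arms did not differ in this share beyond the spread between libraries (22.6 ± 1.30% against 23.2 ± 0.560%, exact two-sided permutation test, p = 0.6, with 0.1 the smallest p that 2 against 3 libraries allow). Between 607 and 681 genes made up 50% of counts. Which gene came first was not shared: Tmsb4x led Sox7 control 2 and Sox17 control 3, B2m led Sox17 control 1 and Malat1 led Sox17 control 2. Of the 10 most abundant genes of each library only 1, Tmsb4x, was common to all 5. Of the 100 most abundant, 51 were common to all 5 libraries and 59 to the 4 libraries other than Sox17 control 1. Of the 166 genes that reached the first 100 anywhere, 45 did so in a single library, and 21 of these were in Sox17 control 1.

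The 30 genes of best median rank, most of which are in the plot by library, took 9.98 to 12.3% of all counts. Of the 30, 28 were among the first 100 in every control library, and the lowest rank any of them held in a control library was 120. From the lowest to the highest library they varied 1.27-fold to 5.23-fold with a median of 2.15-fold, and 13 of 30 stayed under 2-fold. Both Sox7 controls lay above all Sox17 controls for 3 of the 30 and below them for 6, where 8.82% and 7.43% of all genes tested did so. The 6, and the 13 under 2-fold, each hold both Wdr89 and Rplp2-ps1, whose counts were nearly the same, so these numbers count that pair as separate genes. Most of these genes were also abundant in the deficient libraries, of which each had 28 to 30 of the 30 among its own first 100. Whether their order held there was not measured.

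**Figure D1:**
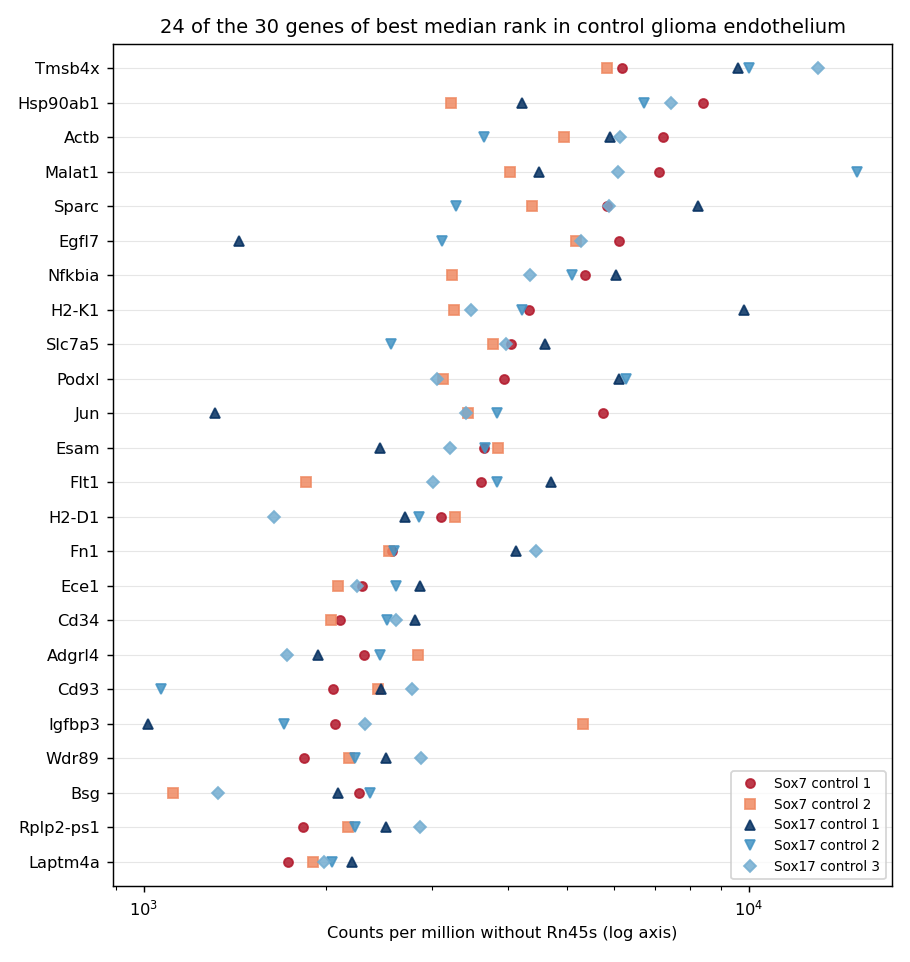
Level of 24 of the 30 genes of best median rank, in CPM without Rn45s on a log axis, with 1 point per control library (red shades, 2 Sox7 controls; blue shades, 3 Sox17 controls). Tmsb4x reached 13021 CPM in Sox17 control 3, and Laptm4a spans only 1.27-fold, while Igfbp3 spans 5.23-fold with its highest point in Sox7 control 2.

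Genes of the actin cytoskeleton headed the ranking. Tmsb4x, thymosin beta 4, which binds actin monomers, had median rank 2 and stood at 6179 and 5828 CPM in the Sox7 controls and 9601, 10029 and 13021 CPM in the Sox17 controls. Both Sox7 controls lay below all Sox17 controls, at 6003 ± 248 CPM (SD, n = 2) against 10884 ± 1863 CPM (SD, n = 3), with a log2 difference of -0.85 (SE 0.45) that did not pass edgeR's quasi-likelihood test (adjusted p = 0.9997). Actb, cytoplasmic beta-actin, was at 7222 and 4951 against 5906, 3658 and 6132 CPM, and there the arms overlapped. The nucleation complex subunit Arpc3 had median rank 59 and 1615 ± 367 CPM (SD, n = 5). Of the 20 cytoskeletal genes listed, 15 were among the 500 most abundant, and the list took 2.39 and 1.99% of counts in the Sox7 controls and 2.83, 2.43 and 3.21% in the Sox17 controls, with no overlap between arms. That separation of the total rested on Tmsb4x, since the rest of the list overlapped between arms. Within it both Sox7 controls were below all Sox17 controls for 6 of 20 genes (Tmsb4x, Cfl1, Vim, Tuba1a, Tuba1b and Tubb4b) and above them for 1 (Myl6), where 7.43% of all genes tested lay below and 8.82% above. The list had a median log2 difference of -0.38 where the median of all genes tested was -0.00014.

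Of the endothelial surface and secreted proteins, 8 of the 22 pan-endothelial genes were among the 100 of best median rank and 14 among the 500. Egfl7, a secreted endothelial factor of the vessel wall, measured 6095 and 5176 CPM in the Sox7 controls and 1434, 3108 and 5291 CPM in the Sox17 controls, so that Sox17 control 1 lay below every other library. Podxl, a sialomucin of the luminal surface, stood at 3936 and 3128 against 6112, 6266 and 3058 CPM, and here Sox17 controls 1 and 2 were the high libraries. Esam, an adhesion molecule of endothelial junctions, ranged only from 2461 to 3848 CPM. Cd34, another sialomucin, was at 2114 and 2040.1 against 2811, 2527 and 2612 CPM, a small difference without overlap between the arms. Adgrl4, an adhesion G-protein-coupled receptor of endothelium, had 2254 ± 436 CPM (SD, n = 5), and Ece1, which converts big endothelin into its active form, had 2422 ± 309.9 CPM (SD, n = 5). Cd93, a transmembrane glycoprotein of tumour endothelium, was near 2056 CPM or above in 4 libraries and at 1066 CPM in Sox17 control 2.

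Flt1 and Kdr, receptors of VEGF, were among the 100 genes of best median rank. Flt1, VEGF receptor 1, measured 3609 and 1856 CPM in the Sox7 controls and 4705, 3841 and 3008 CPM in the Sox17 controls, with Sox7 control 2 lowest. Kdr, VEGF receptor 2, was steadier at 1832 and 1303 against 1909.6, 1851 and 1543 CPM, and Flt4, VEGF receptor 3, was lower throughout at 148 ± 26.2 CPM (SD, n = 5). The co-receptor Nrp1 stood at 323 and 316 against 954, 583 and 369 CPM without overlap, and Nrp2 at 199 and 165 against 139, 311 and 264 CPM with overlap. Of the 9 genes of the system, Vegfa and Vegfb lay higher in both Sox7 controls, Nrp1 lower and 6 overlapped (against 8.82% higher and 7.43% lower among all genes tested), and the median log2 difference was -0.15. Angpt2, the ligand that opposes Tie2 activation in sprouting vessels, was one of the steadiest abundant genes, at 383 and 325 against 343, 316 and 375 CPM.

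Barrier genes of brain endothelium were well represented: 7 of 23 were among the 100 of best median rank and 13 among the 500, and together they took 1.72 and 2.22% of counts in the Sox7 controls and 2.21, 2.02 and 1.54% in the Sox17 controls. Slc7a5, the transport subunit of the large neutral amino acid carrier, was the leading one at 4042 and 3772 CPM in the Sox7 controls and 4600.2, 2560.1 and 3972 CPM in the Sox17 controls. Abcb1a, which encodes the efflux pump P-glycoprotein, was at 1649 and 1903 against 1432, 3503 and 1326 CPM, with Sox17 control 2 highest. Slc2a1, the glucose transporter GLUT1, measured 909 and 4057 against 1857, 1726 and 1139 CPM, with Sox7 control 2 the high library. Bsg, basigin, a chaperone of monocarboxylate transporters, stood at 2269 and 1119 against 2092, 2362 and 1328 CPM. Both Sox7 controls lay above all Sox17 controls for Apcdd1 and Tfrc and below them for Ocln, 3 of 23 genes in all, where 16.25% of all genes tested lay on either side without overlap. Among 14 junction genes none lay higher and 4 lay lower in both Sox7 controls: Ocln, Jam2, Jam3 and Ctnnb1, the last being beta-catenin at 1131 and 1063 against 1888, 1564 and 1338 CPM. Of all genes tested, 8.82% lay higher and 7.43% lower. The list's total, 0.997 and 1.04% against 0.929, 1.21 and 1.04%, overlapped between arms.

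Matrix genes of the vascular basement membrane followed. Sparc, a matricellular glycoprotein, had median rank 7 and was at 5830 and 4389 CPM in the Sox7 controls and 8260, 3277 and 5869.9 CPM in the Sox17 controls, with Sox17 control 1 highest and Sox17 control 2 lowest. Fn1, fibronectin, measured 2575 and 2538 against 4117, 2590.4 and 4447 CPM, and both Sox7 controls lay just below all Sox17 controls. The type IV collagen gene Col4a1 had 1685 ± 258 CPM (SD, n = 5) and the perlecan gene Hspg2 1275 ± 259 CPM (SD, n = 5). Of 15 such genes, none lay higher and 2, Fn1 and Agrn, lay lower in both Sox7 controls, near the 16.25% of all genes tested that did not overlap. The list took 1.40 and 1.26% of counts in the Sox7 controls and 1.86, 1.06 and 1.73% in the Sox17 controls. Of the caveolar genes, Ptrf, which encodes cavin 1, varied little, at 2326 and 1721 against 1932, 1882 and 2251 CPM. Plvap, the diaphragm protein of fenestrated and tumour vessels, was at 206 and 295 against 321, 308 and 99.5 CPM, with Sox17 control 3 lowest.

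The remaining leading genes were housekeeping, chaperone, signalling and nuclear transcripts. Hsp90ab1, the constitutive cytosolic HSP90, stood at 8411 and 3218 CPM in the Sox7 controls and 4222, 6704 and 7432 CPM in the Sox17 controls. Malat1, a long RNA kept in the nucleus, was at 7096 and 4033 against 4501, 15106 and 6092 CPM, and Sox17 control 2 stood apart. Nfkbia, the inhibitor that holds NF-kappaB in the cytoplasm, was within 1.86-fold at 4815 ± 1069.5 CPM (SD, n = 5). Wdr89 and Rplp2-ps1, both within this first 30, had counts that differed by at most 0.422% in any control library. Wdr89 lies at chr12:75630596-75669537, minus strand, in the GENCODE vM21 annotation of GRCm38. The counting could have given the same reads to both symbols, so the pair counts as 1 uncertain entry, and a ribosomal protein pseudogene in it makes its source uncertain too.

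How alike the libraries were did not follow the arms. Over the 5000 genes of best median rank, the Spearman correlation of levels was 0.775 between the Sox7 controls and 0.671 to 0.863 among the Sox17 controls, and between libraries of different arms it ran from 0.604 to 0.912. The most alike pair of all 10 was Sox7 control 1 with Sox17 control 3, where the median gene differed by 0.29 on the log2(CPM + 1) scale and 80 of the first 100 genes were shared. All 4 correlations under 0.69 involved Sox17 control 1, as the plot of pairwise correlations shows. These correlations are over genes, which are not independent, and describe these libraries only. No pair agreed within sampling noise: the chi-square statistic of their counts was 47.4 to 145 times its degrees of freedom, so none was taken for a repeat of another.

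**Figure D2:**
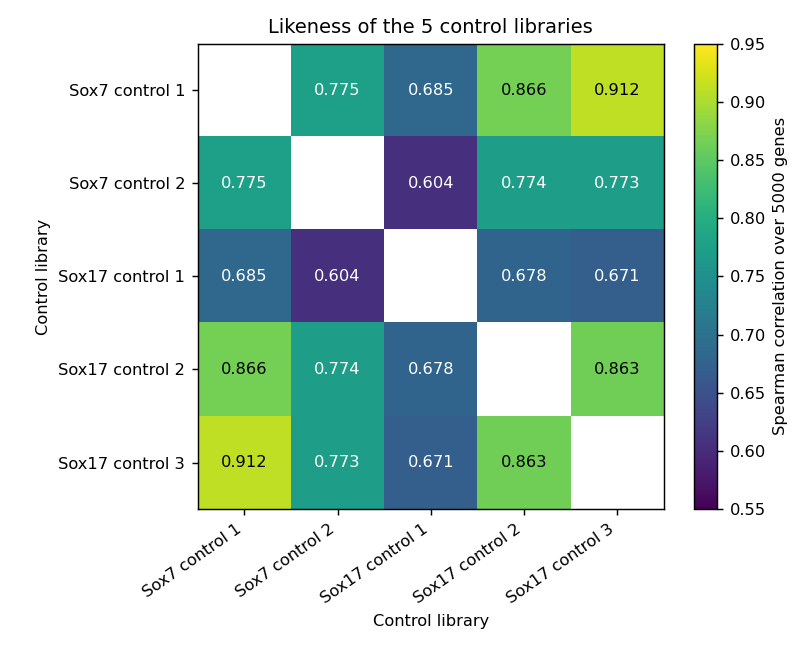
Spearman correlation of levels over the 5000 genes of best median rank for each pair of control libraries, in rows and columns, with the colour scale on the right and the diagonal left empty. The highest value, 0.912, joins Sox7 control 1 and Sox17 control 3, and the row of Sox17 control 1 holds the 4 lowest values, 0.604 to 0.685.

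Among the 500 most abundant genes the spread between control libraries was far larger than counting error. The median SD of log2(CPM + 1) over the 5 libraries was 0.440, against 0.0279 from counting alone. Of the 500 genes, 220 stayed within 2-fold from lowest to highest, 67 had an SD under 0.25, 30 varied more than 5-fold and 21 had an SD above 1. The median SD was 0.493 over ranks 1 to 100, 0.421 over ranks 101 to 500, 0.467 over ranks 1001 to 2000 and 0.770 over ranks 4001 to 8000, where the median gene had 22.9 CPM. The first 100 genes varied no less than those of ranks 1001 to 2000.

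The 10 steadiest of the 500 were Fermt2, Rpl22, Angpt2, Neat1, Hdac7, Laptm4a, Hint1, Eif4g2, Lamp1 and Slco2b1, with SDs of 0.07 to 0.14. Fermt2, kindlin 2, an activator of integrins, measured 443 and 454 CPM in the Sox7 controls and 499, 477 and 457 CPM in the Sox17 controls. Hdac7, a class IIa histone deacetylase, stood at 1336 and 1083 against 1299.6, 1275 and 1165 CPM. Neat1, the RNA scaffold of paraspeckles, was at 694 and 719.8 against 598, 622 and 714 CPM, in contrast to the other nuclear RNA, Malat1. Rpl22 is a ribosomal protein, Eif4g2 a translation factor, and Laptm4a and Lamp1 are lysosomal membrane proteins. Slco2b1, an organic anion carrier, measured 722 and 798 against 878, 679 and 748 CPM. The 10 were chosen by this spread, so it is a description.

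The 10 most variable were Lrrc17, 2900060B14Rik, Fosb, B2m, Eml2, Dusp2, Arl6ip5, Snhg8, Egr1 and Hnrnpul2, with SDs of 1.22 to 2.35. In 9 of them the outlying value belonged to Sox17 control 1. Lrrc17, a secreted leucine-rich repeat protein (chr5:21543559-21575904, plus strand), stood at 1723 and 807 CPM in the Sox7 controls and 26.0, 818 and 685 CPM in the Sox17 controls, where the low value rests on 47 counts. Eml2, a microtubule-associated protein, was at 1520.5 and 1029 against 143, 882 and 997 CPM. Arl6ip5 was at 758 and 261 against 69.7, 329.5 and 506 CPM and Snhg8, a host transcript of small nucleolar RNA, at 229 and 405 against 50.4, 414 and 358 CPM. With Sox17 control 1 left out, the SD of Lrrc17 was 0.59 and that of Fosb 0.14. The exception was 2900060B14Rik, annotated as antisense (chr1:118458652-118459267, minus strand), which stood at 465 and 648 against 416, 64.9 and 68.7 CPM. There Sox17 controls 2 and 3 were the low libraries, and the strand setting of the counting is not given, so reads from an opposite gene cannot be told apart.

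**Figure D3:**
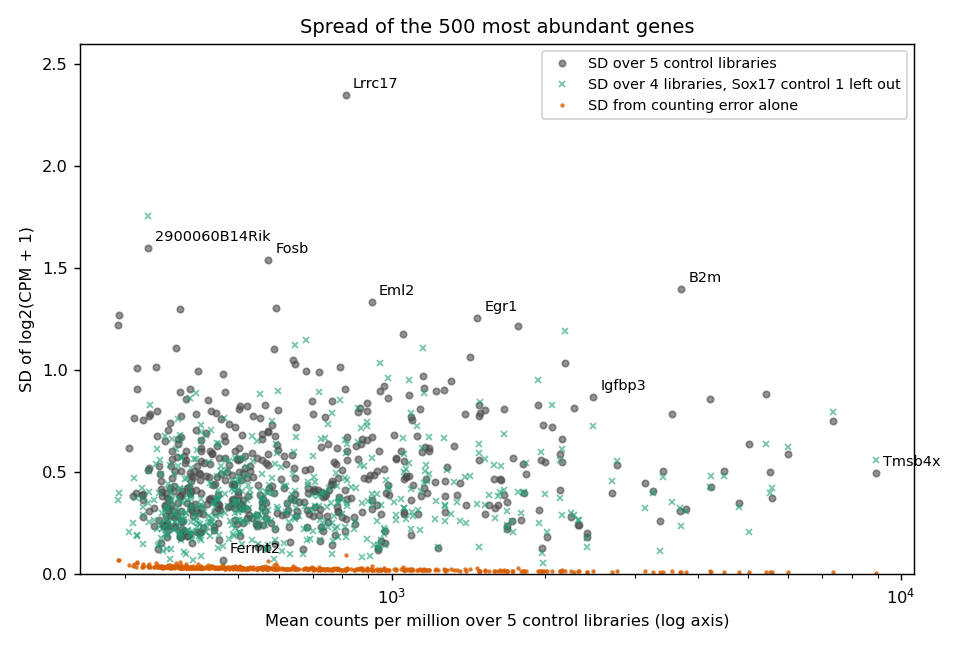
Spread of the 500 most abundant genes: SD of log2(CPM + 1) against mean CPM (log axis), over the 5 control libraries (grey circles), over the 4 without Sox17 control 1 (green crosses) and from counting error alone (orange dots). Lrrc17 lies at 2.35 and Fermt2 at 0.07, and the median falls from 0.440 to 0.345 without Sox17 control 1.

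Sox17 control 1 was the lowest of the 5 libraries for 182 of the 500 genes, 44 of them by more than 2-fold, and the highest for 111, 15 of them by more than 2-fold. The genes it held lowest by this margin included 6 immediate early genes, which are transcribed within minutes of a stimulus to a cell. Fosb, a subunit of the AP-1 factor, was at 627 and 749 CPM in the Sox7 controls and 63.7, 653 and 768 CPM in the Sox17 controls. Egr1, a zinc finger factor, measured 1968 and 1481 against 261, 1371 and 2272 CPM. Junb, another AP-1 subunit, stood at 3053 and 1805 against 339, 1614 and 2047 CPM, and Jun, Fos and Ier2 were also lowest there, with Ier2 at 748 and 673 against 126, 715 and 674 CPM. Without Sox17 control 1, Fosb stayed within 627 to 768 CPM. The 18 immediate early genes together took 1.99 and 1.54% of counts in the Sox7 controls and 0.709, 1.61 and 1.59% in the Sox17 controls. Not all followed: Klf6 was at 1675 and 1226 against 1069, 2435 and 1761 CPM.

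Genes outside the immediate early list also stood apart in Sox17 control 1. Eng, endoglin, a co-receptor of the TGF-beta family, measured 621 and 529 CPM in the Sox7 controls and 121, 498 and 565 CPM in the Sox17 controls. Insr, the insulin receptor, stood at 475 and 616 against 107, 404 and 481 CPM. Tap2, a subunit of the peptide transporter for class I presentation, was at 1624 and 1145 against 368, 1857 and 1537 CPM, and Calr, calreticulin, at 1009.5 and 470.4 against 164, 667 and 894 CPM. Gas5, a growth-arrest noncoding RNA of lower rank, measured 295 and 313 against 31.6, 313 and 333 CPM. Genes that were high there included Itga6, the laminin-binding integrin alpha 6, at 1864 and 1166 against 5128, 1573 and 1672 CPM, and Ptprb, the vascular endothelial phosphatase that acts on Tie2, at 1042 and 932 against 3343, 969.7 and 1148 CPM. Mgp, matrix Gla protein, stood at 342 and 375 against 1037, 359 and 285 CPM. The genes of this paragraph other than Tap2, Calr, Gas5 and Mgp were chosen after their values were seen. Haemoglobin transcripts and the shallow depth also marked this library, and their part in these values was not tested.

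In class I antigen presentation 2 genes were far higher in Sox17 control 1 than elsewhere. B2m, the light chain shared by class I molecules, was at 1820 and 1219 CPM in the Sox7 controls and 12586, 1449 and 1459.5 CPM in the Sox17 controls, so that Sox17 control 1 was 6.91 times the next library. H2-K1, a class I heavy chain, was at 4340 and 3259.5 against 9815, 4224 and 3475 CPM, but H2-D1, the other main heavy chain, stood at 3103 and 3268 against 2707, 2848 and 1642 CPM and Tap2 was lowest in the same library. The 15 genes took 1.35 and 1.04% of counts in the Sox7 controls and 2.74, 1.28 and 1.04% in the Sox17 controls. Heavy chains of this family are near-identical, so reads may have been assigned to the wrong member and these symbols are uncertain.

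Among interferon-stimulated genes, Isg15 and the list's total were lowest in Sox7 control 2, but not every member followed. Isg15, a ubiquitin-like protein, was at 1490.3 and 293 CPM in the Sox7 controls and 862, 1169 and 925 CPM in the Sox17 controls, and Ifit3, an antiviral effector, at 988 and 286 against 1558, 767 and 357 CPM. In both, Sox7 control 2 was the lowest library, while for Ifit3 Sox17 control 1 was the highest. Ifitm3, a membrane-bound restriction factor, was nearly level at 1072 and 929 against 1129.7, 1008 and 1326 CPM, and Bst2, tetherin, was high in Sox7 control 1 and Sox17 control 3 at 1062 and 428 against 351, 225 and 1158 CPM. The 22 genes took 0.784 and 0.444% of counts in the Sox7 controls and 0.855, 0.664 and 0.611% in the Sox17 controls. None of the 21 tested was without overlap between arms, where 16.25% of all genes tested were. The promoters of B2m, Ifit3 and Isg15 are shown because their levels differ between libraries as just described and they share a motif. The sequences are RefSeq's on GRCm38.p6 and run from 250 bases before to 50 bases after the start, 5′ to 3′ on the gene's strand. Capitals mark matches on either strand to GAAANNGAAA, the core of the interferon-stimulated response element bound by STAT and IRF factors, and overlapping matches were counted singly.
B2m promoter (chr2:122147437-122147736, plus strand): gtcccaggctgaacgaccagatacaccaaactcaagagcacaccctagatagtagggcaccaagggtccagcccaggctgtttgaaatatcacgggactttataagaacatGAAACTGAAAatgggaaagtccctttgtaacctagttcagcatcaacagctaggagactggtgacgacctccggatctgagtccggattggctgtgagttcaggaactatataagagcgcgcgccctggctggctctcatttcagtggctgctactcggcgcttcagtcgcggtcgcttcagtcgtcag
Ifit3 promoter (chr19:34583279-34583578, plus strand): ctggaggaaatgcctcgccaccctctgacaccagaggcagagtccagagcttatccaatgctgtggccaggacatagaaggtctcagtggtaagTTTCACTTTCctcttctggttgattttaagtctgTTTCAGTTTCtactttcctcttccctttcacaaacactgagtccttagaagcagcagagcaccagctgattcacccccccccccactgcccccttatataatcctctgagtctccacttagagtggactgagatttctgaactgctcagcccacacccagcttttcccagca
Isg15 promoter (chr4:156200769-156201068, minus strand): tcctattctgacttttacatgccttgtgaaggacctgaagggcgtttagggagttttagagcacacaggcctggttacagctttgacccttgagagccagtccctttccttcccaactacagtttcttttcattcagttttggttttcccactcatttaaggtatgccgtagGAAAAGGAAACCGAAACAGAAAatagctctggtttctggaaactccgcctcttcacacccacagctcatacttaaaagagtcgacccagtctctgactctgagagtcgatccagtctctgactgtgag

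The match in B2m began 139 bases before the start, those in Ifit3 156 and 122 bases before it, and the 3 overlapping matches in Isg15 78, 72 and 66 bases before it. Of 32851 promoters in the table, 3.44% held the motif, and of the 27025 genes they belong to, 3.99% did. It was found in 12 of the 18 interferon-stimulated genes with a promoter there and in 2 of 14 class I genes, B2m and H2-T23. H2-K1 had no match in its window, although it was high in the same library as B2m. Ifitm3, which was level, had a match too. A match describes letters in a window and shows no binding.

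Sox7 control 2 stood apart in other genes. It was the highest library by more than 2-fold for 4 of the 500 genes, Igfbp3, Igfbp7, Slc2a1 and Ddx17, and the lowest by that margin for 8, among them Isg15 and Hsp90aa1. Igfbp3, a secreted binding protein of insulin-like growth factors that tumour endothelium makes, measured 2069 and 5324 CPM in the Sox7 controls and 1016, 1704 and 2322 CPM in the Sox17 controls. Its relative Igfbp7 stood at 1022 and 4069 against 1814, 1588 and 1832 CPM, while Igfbp4 was at 774 and 1192 against 432, 499 and 1583 CPM and did not follow. The 11 genes of the insulin-like growth factor system took 0.502 and 1.25% of counts in the Sox7 controls and 0.511, 0.477 and 0.676% in the Sox17 controls. Igfbp5 and H19, 2 of the 11, lay higher in both Sox7 controls, as did 8.82% of all genes tested. Ctgf, a matricellular target of YAP, was also highest in Sox7 control 2, at 959 and 3033 against 748, 1612 and 1961 CPM, whereas its relative Cyr61 measured 1076 and 837 against 515, 1251 and 1528 CPM. The stress-induced chaperone Hsp90aa1 was lowest in the same library, at 788 and 293 against 1255, 781 and 589 CPM. Over the 20 genes of tip cells and tumour endothelium none was without overlap between arms, where 16.25% of all genes tested were.

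None of the 3 SoxF genes was among the 500 of best median rank, although Sox18 reached rank 176 in Sox7 control 2. Sox17 had median rank 1609 and stood at 131 and 314 CPM in the Sox7 controls and 213, 103 and 108 CPM in the Sox17 controls. Sox18 was at 77.4 and 725 against 89.1, 200.4 and 248 CPM, with Sox7 control 2 the high library, and Sox7 at 26.1 and 6.92 against 74.2, 19.001 and 40.5 CPM, with Sox7 control 2 the low one. All 3 genes overlapped between arms, and their log2 differences were 0.67 (SE 0.49), 1.13 (SE 0.75) and -1.37 (SE 0.81), with edgeR adjusted p = 0.9997 in each case. The range over control libraries was 3.02-fold for Sox17, 9.26-fold for Sox18 and 9.49-fold for Sox7 on the CPM + 1 scale. Libraries labelled deficient had 0.610 and 0.793 CPM of Sox7 in the Sox7 arm and 2.47, 1.13 and 7.55 CPM of Sox17 in the Sox17 arm, below every control of their arm.

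Among 20 other transcription factors of endothelium, Epas1, the hypoxia-inducible factor HIF-2alpha, was the most abundant, at 1272 and 2561 CPM in the Sox7 controls and 1407, 1597 and 1099 CPM in the Sox17 controls. Klf2 and Klf4, both induced by shear stress, was at 717 ± 190.4 CPM (SD, n = 5) and 1083 ± 412 CPM (SD, n = 5), and Foxq1, a forkhead factor of brain endothelium, at 689 ± 139.8 CPM (SD, n = 5). Of the 20, 2 did not overlap between arms, Ets2 higher and Foxf2 lower in both Sox7 controls, a share below the 16.25% of all genes tested. Of 15 Notch genes, Hes1, a direct target, stood at 1056 and 774 against 396, 682 and 951 CPM, Notch1 at 202 and 191 against 370.3, 202 and 207 CPM and Notch4 at 196 and 257 against 102, 183 and 262 CPM. Rbpj lay higher and Dll1 lower in both Sox7 controls, and the list's total was 0.218 and 0.207% of counts in the Sox7 controls and 0.186, 0.178 and 0.214% in the Sox17 controls.

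Arterial and venous markers overlapped between arms as groups. Cxcl12, an arterial chemokine that is the ligand of Cxcr4, was at 2588 and 819 CPM in the Sox7 controls and 1842, 4721 and 977 CPM in the Sox17 controls, a range of 5.76 times. The 16 arterial genes took 0.494 and 0.257% of counts in the Sox7 controls and 0.462, 0.721 and 0.281% in the Sox17 controls, and Gja4, Sema3g and Fbln5 lay higher and Sat1 lower in both Sox7 controls, 4 of 16, where 16.25% of all genes tested did not overlap. Among the 13 venous genes, Vwf, von Willebrand factor, was at 308 and 791 against 320.5, 198 and 329 CPM and Ackr1, a chemokine-binding receptor of venules, at 231 and 707 against 252, 166 and 424 CPM, with Sox7 control 2 highest in both. Vcam1, an adhesion molecule for leukocytes, stood at 535 and 172 against 1099, 312 and 309 CPM. Ephb4 and Slc38a5 lay lower in both Sox7 controls, and the list took 0.267 and 0.359% against 0.280, 0.243 and 0.374%.

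Metabolic, stress and translation lists overlapped between arms in their totals. The 22 genes of hypoxia and glycolysis took 0.325 and 0.626% of counts in the Sox7 controls and 0.418, 0.407 and 0.312% in the Sox17 controls; Ldha, lactate dehydrogenase A, was nearly level at 201 and 205 CPM in the Sox7 controls and 203, 178 and 232 CPM in the Sox17 controls. Gpi1, Pfkfb3, Vegfa and Car9 lay higher and Pfkl and Gapdh lower in both Sox7 controls, 6 of 21 tested, against 8.82% higher and 7.43% lower among all genes tested. The endoplasmic reticulum chaperone Hspa5 was at 2494 and 1656 against 1445, 1938 and 2200 CPM, and the unfolded protein response list took 0.885 and 0.528% against 0.512, 0.684 and 0.824%. Heat shock genes took 1.34 and 0.656% against 0.758, 1.12 and 1.05%. Ribosomal protein genes took 1.99 and 2.27% against 1.87, 2.17 and 2.46%, with 14 of 78 lower and 1 higher in both Sox7 controls (against 8.82% higher and 7.43% lower among all genes tested) and a median log2 difference of -0.09. Their processed pseudogenes make single members uncertain. Translation factors took 1.02 and 0.734% against 0.787, 0.902 and 1.23%. Proliferation genes took 0.139 and 0.0968% against 0.0949, 0.0928 and 0.160%, with Top2a, a topoisomerase of dividing cells, at 235 and 45.8 against 25.5, 73.0 and 173 CPM. No symbol of the mitochondrial genome was listed.

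Transcripts of other cell types were present and differed between libraries. The 20 macrophage and microglia genes took 0.132 and 0.0518% of counts in the Sox7 controls and 0.00637, 0.0846 and 0.0242% in the Sox17 controls. C1qa, a complement subunit made by these cells, measured 578 and 107 CPM in the Sox7 controls and 21.6, 351 and 76.4 CPM in the Sox17 controls. Of 18 tested genes of the list, 3, Tyrobp and Trem2 among them, lay higher in both Sox7 controls, where 8.82% of all genes tested did. In the fit 15 of the 18 were higher and 3 lower in Sox7 controls. The list's median log2 difference was 1.27, where the median of all genes tested was -0.00014, and 0 of its genes passed adjustment. Erythroid genes took 0.0370 and 0.0164% against 0.417, 0.0571 and 0.0245%, with Hba-a1, a haemoglobin alpha chain, at 141 and 17.4 against 2874, 148 and 59.8 CPM and rank 22 in Sox17 control 1. Pericyte genes took 0.0502 and 0.0426% against 0.111, 0.101 and 0.0384%, with Rgs5 at 209 and 68.2 against 781, 238 and 133 CPM, and smooth muscle genes took 0.0630 and 0.0452% against 0.116, 0.0827 and 0.0534%, with Acta2 at 136 and 28.9 against 499.8, 101 and 41.3 CPM. Sox17 control 1 was the highest library for erythroid, pericyte and smooth muscle genes and the lowest for macrophage genes. In bulk samples fewer cells of a type and less RNA per cell cannot be told apart.

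Lists of glial, neuronal and tumour markers took at most 0.340% of counts in any control library. The 12 astrocyte genes took 0.171 and 0.258% of counts in the Sox7 controls and 0.340, 0.238 and 0.148% in the Sox17 controls, more of it from Sparcl1 than from any other, at 1470.3 and 1309.9 CPM in the Sox7 controls and 3151, 1579 and 1137 CPM in the Sox17 controls. Sparcl1 was among the 100 genes of best median rank and made 3151 of the list's 3401 CPM in Sox17 control 1. Without Sparcl1 the most abundant was Slc1a2, a glutamate transporter, at 62.4 and 532 against 104, 300.4 and 92.2 CPM, with Sox7 control 2 highest. The 12 oligodendrocyte genes took 0.0280 and 0.0491% against 0.0222, 0.0385 and 0.0335%, mostly as Mal. Neuronal genes took 0.00669 and 0.00770% against 0.00399, 0.0134 and 0.00518%. The 13 genes of glioma and neural progenitors took 0.113 and 0.111% against 0.231, 0.142 and 0.138%, without overlap between arms, and Vim, an intermediate filament that endothelium makes too, was the main one at 567 and 761 against 1333, 793 and 1037 CPM. Without Vim the rest of that list overlapped between arms.

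Lists of leukocytes and the remaining cell types took at most 0.0589% of counts in any control library. MHC class II genes took 0.0589 and 0.0377% of counts in the Sox7 controls and 0.0266, 0.0558 and 0.0202% in the Sox17 controls, neutrophil genes 0.00523 and 0.00189% against 0.000221, 0.000199 and 0.00320%, and T and NK genes 0.00162 and 0.00175% against 0.00216, 0.00148 and 0.000715%. Of 6 B cell genes measured, 3 had no count in any control library and the sum reached at most 0.000419% of counts. Platelet genes took 0.00313 and 0.00651% against 0.000886, 0.00145 and 0.00374%, fibroblast genes 0.00346 and 0.00174% against 0.00659, 0.00315 and 0.00377%, lymphatic genes 0.0161 and 0.0184% against 0.0178, 0.0141 and 0.0121%, mostly as Flt4, and ependymal and choroid genes 0.0115 and 0.0240% against 0.0184, 0.0133 and 0.0112%. Over all 44 lists with a measured gene, the widest Wilson 95% interval of a share reached 0.0249 percentage points to either side. For 2 of the 44, cytoskeleton and glioma and neural progenitors, the arms did not overlap in the summed share. Both lists hold Vim, which itself lay lower in both Sox7 controls, so the 2 are not independent of each other. Each separation also rested on a single gene: without Tmsb4x in the cytoskeleton list, or without Vim in the other, the summed shares overlapped. The smallest exact two-sided permutation p over the 44 was 0.2, and 0.9625 after Benjamini-Hochberg adjustment.

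**Figure D4:**
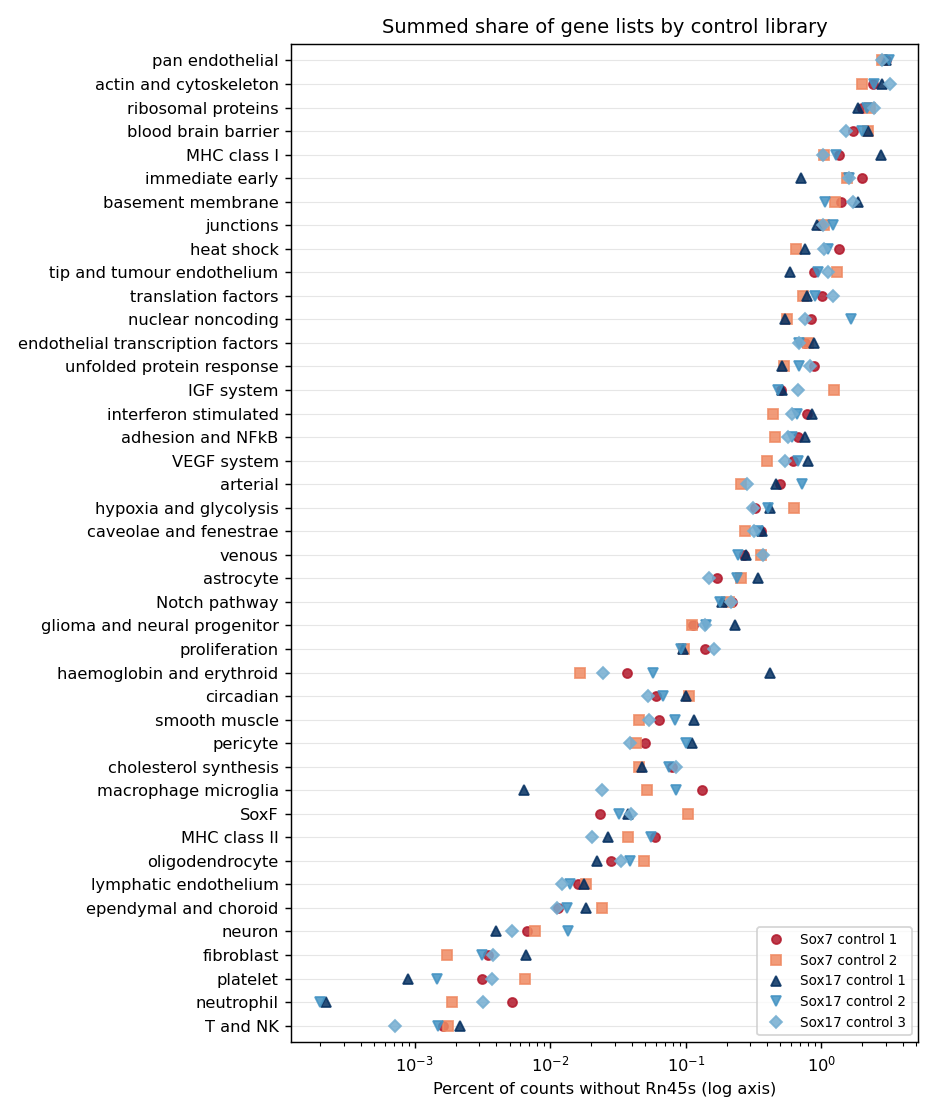
Summed share of each gene list in percent of counts without Rn45s (log axis), with 1 point per control library (red shades, 2 Sox7 controls; blue shades, 3 Sox17 controls) and lists ordered by their mean. Pan-endothelial genes lie between 2.81 and 3.17% in every library, while erythroid genes reach 0.417% and macrophage genes 0.00637% in Sox17 control 1. Lists under 0.001% on average and the sex-linked list are not drawn.

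Sex-linked transcripts set Sox7 control 1 apart. Xist, the RNA that coats the inactive X chromosome in female cells, had 3895 counts there, 0 in Sox7 control 2, 0, 0 and 7 in the Sox17 controls. Ddx3y, a Y-linked helicase gene, was detected in all 5 libraries, at 85.4 and 116 CPM in the Sox7 controls and 269.6, 105 and 97.0 CPM in the Sox17 controls. Eif2s3y, Kdm5d and Uty, also Y-linked, had 81, 43 and 107 counts in Sox7 control 1. Eif2s3y and Kdm5d, 2 of the 4 sex-linked genes tested, lay below all Sox17 controls in both Sox7 controls, where 7.43% of all genes tested did. Sox7 control 1 was the only control library that held Xist beyond 7 counts, and it held Y-linked transcripts beside it. The labels used here give no sex, and neither the animals nor the injected line can be told apart as the source.

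No gene passed the test of Sox7 controls against Sox17 controls across all genes. Of 12186 genes tested with edgeR's quasi-likelihood F-test on the 5 libraries, 0% had an adjusted p under 0.05, the smallest adjusted p being 0.9997, and DESeq2 also called 0. At an unadjusted p under 0.05 there were 148 genes, 1.21%, of which 89 were higher and 59 lower in Sox7 controls. The common biological coefficient of variation was 0.879 with 3 residual degrees of freedom. Both Sox7 controls lay above all Sox17 controls for 1075 genes (8.82%) and below for 905 (7.43%), and with Rn45s kept in the totals for 810 and 1128. Without Sox17 control 1 the counts were 1667 above and 2055 below, so the larger side turned with that library. The arms differ in the allele named by the label, in the code of the description and in everything else their sets do not share, and these cannot be told apart.

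The genes below are among the 10 of smallest p in each direction without overlap between arms, 9 of each 10, and none passed adjustment (adjusted p = 0.9997 throughout). Ppp2r3a, a regulatory subunit of protein phosphatase 2A (chr9:101105084-101251795, minus strand), had the smallest p and stood at 55.1 and 105 CPM in the Sox7 controls and 4.98, 4.89 and 17.6 CPM in the Sox17 controls, a log2 difference of 3.09 (SE 0.72). Cyp26b1, which degrades retinoic acid (chr6:84571414-84593908, minus strand), was at 92.8 and 237 against 26.6, 57.4 and 42.5 CPM, a log2 difference of 1.95 (SE 0.54) that was 1.17 without Sox7 control 2 and 2.47 without Sox7 control 1. In the deficient libraries Cyp26b1 was at 28.4 and 36.6 CPM in the Sox7 arm and 22.3, 55.8 and 31.0 CPM in the Sox17 arm. Both Sox7 controls exceeded the other 8 libraries of the series for this gene.

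Of the genes higher in Sox7 controls, Ccl8 and Itgax are known from myeloid cells. Ccl8, a chemokine of macrophages, measured 120.4 and 55.5 CPM in the Sox7 controls and 0, 13.7 and 7.08 CPM in the Sox17 controls. Itgax, the integrin CD11c, stood at 19.3 and 56.9 against 0, 4.25 and 1.79 CPM, and Npc2, a lysosomal cholesterol carrier, at 746 and 493 against 157, 289.9 and 258 CPM. In Sox7-deficient libraries 1 and 2 the same genes were at 4359.7 and 0 CPM (Ccl8), 287 and 20.9 CPM (Itgax) and 3697 and 588 CPM (Npc2). The share of the macrophage list, given above, overlapped between arms, with Sox17 control 2 above Sox7 control 2, and its part in these differences was not tested. The other 4 genes, Pik3ip1, Cnppd1, Rgs12 and Fbrsl1, had log2 differences of 1.23 to 2.02. Without Sox7 control 2 those of Pik3ip1, Cnppd1 and Fbrsl1 were 0.88, 0.86 and 0.93, and that of Rgs12 was 1.14. Rgs12, a regulator of G-protein signalling, was at 328 and 394 against 120.1, 161 and 179.6 CPM.

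Genes lower in Sox7 controls included proteasome and respiratory chain subunits. Psmb7, a catalytic subunit of the proteasome, measured 48.8 and 43.7 CPM in the Sox7 controls and 136, 115 and 167 CPM in the Sox17 controls, a log2 difference of -1.58 (SE 0.47). Psme2b, close in sequence to the proteasome activator gene Psme2 and therefore uncertain, stood at 162 and 90.5 against 520.3, 364 and 199.8 CPM. Ndufa4, a respiratory chain subunit, was at 78.1 and 45.1 against 189.8, 145 and 161 CPM, and Mcts1, a factor of translation reinitiation, at 31.9 and 11.6 against 132, 73.2 and 58.0 CPM. Ctu2, which acts in thiolation of transfer RNA, measured 21.9 and 5.19 against 194, 52.6 and 31.7 CPM, with a high value in Sox17 control 1. Tceal8, Itgb1bp1 and Smim10l1 had log2 differences of -1.47, -2.68 and -3.29. Without Sox17 control 1 the log2 difference was -1.63 for Ctu2 and -1.55 for Itgb1bp1, against -2.70 and -2.68 with it, and without Sox7 control 1 it was -4.12 for Ctu2 and -5.46 for Smim10l1.

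B3gntl1 was nearly absent from the Sox7 controls, which held 1 count of it in all. B3gntl1, a glycosyltransferase-like gene, had 0 and 1 counts in the Sox7 controls and 33, 166 and 77 in the Sox17 controls. Over pooled counts the Sox17 controls were 171 times higher, with an exact 95% interval of 30.5 to 6787. The gene was chosen for not overlapping and passed the filter on low counts through the Sox17 controls, so the ratio is a description, and its interval covers counting error only. In Sox7-deficient libraries B3gntl1 stood at 3.82 and 0 CPM.

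**Figure D5:**
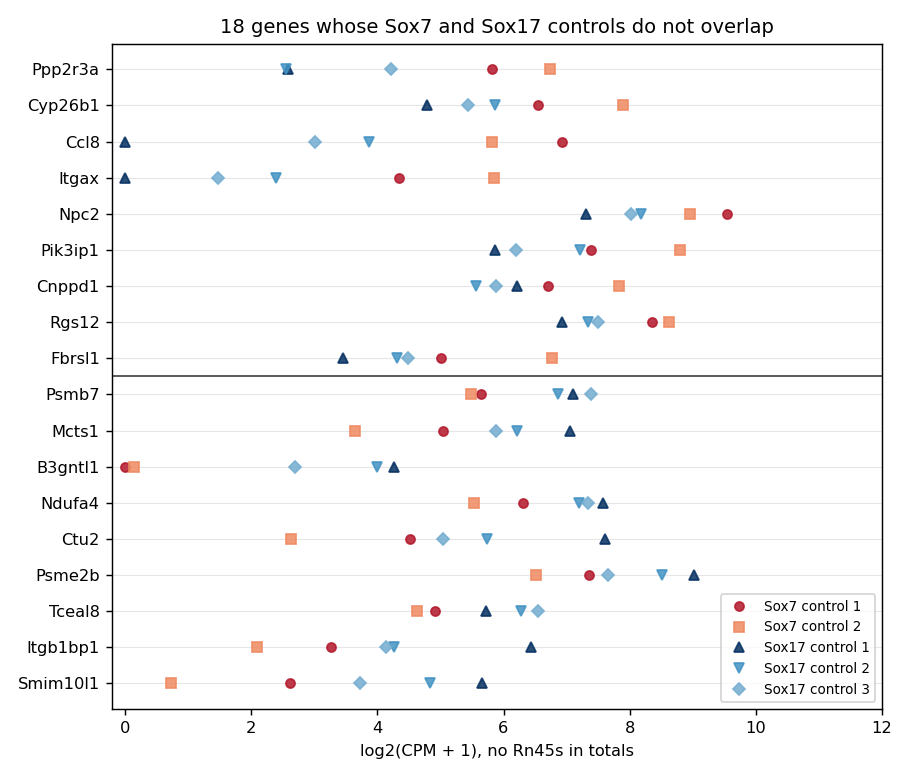
Level as log2(CPM + 1) in each control library for 18 of the 20 genes of smallest p without overlap between arms: 9 above the line with both Sox7 controls (red shades) higher, 9 below it with both lower than all Sox17 controls (blue shades). The genes were chosen for not overlapping, and none passed the test after adjustment.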

How the data were processed

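RNA of 5 control libraries was measured by 3′ tag sequencing. The deposited values were raw counts per gene symbol, 1 file per library, not normalised. Bowtie2, edgeR and build mm10 are named per the submitters' processing notes, with no version or role. Which annotation and counting program were used, and whether strand was considered, is not given in the sources used here. Repeated lines of a symbol were summed. The 23238 symbols in all 10 files were kept, less Rn45s, and 1183 symbols of the Sox17 files alone, which all begin with Mir, were left out. There were no rows without a symbol.

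Groups came from the sample titles. CPM used plain totals, of 1806662 to 13986604 counts per control library. The arms were compared in R 4.3.3 with edgeR 4.0.16 (quasi-likelihood F-test, robust, TMM scaling, filterByExpr, 12186 genes tested, Benjamini-Hochberg threshold 0.05), which was tested on simulated data. The pass criterion applied only at a smaller biological coefficient of variation than these data had, so it does not give the power of this comparison. The standard error is the log2 difference divided by the square root of F. Single values were compared by exact permutation over libraries, and shares carry Wilson 95% intervals. Alternatives were DESeq2 1.42.0, limma 3.58.1 (voom), other scalings and filters, Rn45s kept, all 10 libraries, a replicate block and each library left out. Positions come from GENCODE vM21 (GRCm38, the assembly of mm10) and promoters from RefSeq.

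Named genes were the 30 of best median rank, the 10 steadiest and 10 most variable of the 500 of best median rank, the 10 of smallest p in each direction among genes without overlap between arms, the markers Pecam1, Cdh5 and Cldn5, the SoxF genes, and up to 4 leading members of each list, or every member of a list of up to 8. Some genes that this rule names are not reported here. Other genes named were chosen after their values were seen. The members and the gene lists were chosen with earlier results of these data known. Leaving out each library in the count of genes without overlap was added after seeing the data.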

Additional observations from a re-analysis of the deposited data

Results flagged for a closer look

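Counts outside the measurement analysed were found in every control library. Symbols that begin with Mir, listed in the Sox17 files alone, held 0.130% of deposited counts in Sox17 control 1 (2715 counts), 0.0672% in Sox17 control 2 (7769 counts) and 0.0721% in Sox17 control 3 (12132 counts). Each lies above the share that 3 counts would give, which was 0.000144% in the shallowest library. The ribosomal RNA precursor Rn45s, left out of the totals, held 22.2% and 4.64% of counts in Sox7 controls 1 and 2. In Sox17 controls 1, 2 and 3 it held 13.2%, 4.36% and 16.8%. Its share differed more within each arm than between the arm means.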

How the results depend on the processing

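The count of genes called between arms was 0 in 10 of 15 alternatives, and limma-voom called 1 (2900060B14Rik), no filter on low counts 1 (Ccl8), and leaving out each library in turn 0 to 5, with 5 lower (Cxcl11, Des, Pdik1l, Rufy3 and Ubap2) without Sox7 control 1 and 1 (Xist) without Sox7 control 2, where the lone Sox7 library is assumed to vary like the others. The labels give no pairing of replicate numbers across arms. Same-numbered libraries deviated from their arm means with correlations of 0.0062 and 0.071. These cannot settle pairing, since the deviations of 2 Sox7 controls mirror each other. With the replicate block the 5 control libraries gave 1 call (Hba-a1) and all 10 libraries gave 0. Genes without overlap numbered 1968 with TMM scaling and 1938 with Rn45s kept, against 1980, and 3441 to 6478 with a library left out, when fewer libraries have to be separated. The 20 genes of the arm comparison were chosen for not overlapping, which fixes their direction. Of these Ccl8 passed the threshold without a filter, at 3.60 with edgeR adjusted p = 0.00398, and its adjusted p was 0.168 to 1 under its other alternatives. The first 50 and 200 genes held 16.2% and 31.6% of counts, and the first 100 held 32.3% with Rn45s kept. Lists without overlap numbered 1 with TMM-scaled totals and 5 to 24 with a library left out, against 2. The shared count of 51 and the median SD of 0.440 stayed within 1.5 times under the alternatives run. Depth limits low genes in Sox17 control 1, where 3 counts are 1.66 CPM.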

Other observations

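Gene groups not described above overlapped between the arms in their totals. Leukocyte adhesion and NF-kappaB genes took 0.678 and 0.459% of counts in the Sox7 controls and 0.761, 0.610 and 0.573% in the Sox17 controls, led by Nfkbia, with Relb, an NF-kappaB subunit, at 166 and 77.2 CPM in the Sox7 controls and 72.0, 130.1 and 136 CPM in the Sox17 controls. None of the 13 tested was without overlap, where 8.82% of all genes tested lay higher and 7.43% lower in both Sox7 controls. Clock genes took 0.0602 and 0.105% against 0.101, 0.0684 and 0.0525%, with Cry2 higher in both Sox7 controls. Tef, a clock output factor, stood at 150.1 and 429 against 277, 163 and 135 CPM, and Nr1d2, a nuclear receptor of the clock, at 85.6 and 96.9 against 292, 127 and 65.3 CPM, with a different high library for each. Cholesterol synthesis genes took 0.0793 and 0.0449% against 0.0475, 0.0751 and 0.0842%, with only Msmo1 higher in both Sox7 controls, at 62.3 and 97.2 against 52.0, 60.8 and 55.6 CPM. Nuclear and other noncoding RNAs took 0.843 and 0.556% against 0.536, 1.66 and 0.762%, where Malat1 sets the value of Sox17 control 2. Genes of caveolae and fenestrae took 0.359 and 0.272% against 0.366, 0.344 and 0.320% and those of tip cells and tumour endothelium 0.892 and 1.31% against 0.585, 0.942 and 1.13%. The 20 endothelial transcription factors took 0.760 and 0.799% against 0.889, 0.682 and 0.691%.

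Some symbols carried nearly the same counts in every control library. Beside Wdr89 and Rplp2-ps1, the pseudogene Atp6v0c-ps2 on chromosome 6 and its parent Atp6v0c on chromosome 17, a subunit of the proton pump of acid organelles, differed by at most 3.20% in any library, among 1972 genes compared. The levels of Atp6v0c-ps2 and Atp6v0c are uncertain as separate genes. Such closeness alone does not show shared reads: Angpt2 on chromosome 8 and C330006A16Rik on chromosome 2 differed by at most 3.26%. Other pairs at separate places in the genome also lay within the 5% limit used.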
